A study of Mus musculus with 6 samples.

Results

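The hair shaft keratins are the hard keratins that fill the cortex and cuticle of a hair. The members were 10 genes chosen by name: Krt31, Krt32, Krt33a, Krt33b, Krt34 and Krt35, which are type I keratins, and Krt81, Krt82, Krt84 and Krt86, which are type II. Probes carrying these names in the array files were taken, which gave 10 probes for 9 of the 10 genes, among 41174 probes and 27343 gene names on the array. Krt33b had 2 probes and Krt81 had none of its own name.

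The mice were female C57BL/6J, an inbred strain, and 6 to 8 weeks old. Their whole back skin was collected after the shaved back had received cream once daily for 7 days. The imiquimod group (3 samples) received 62.5 mg per day of a cream with 5% imiquimod, an activator of Toll-like receptor signalling used to produce psoriasis-like skin inflammation in mice. The vehicle group (3 samples) received the same amount of cream without imiquimod and was shaved in the same way. Each sample was hybridised to 1 single-colour Agilent array; the labels do not say whether each came from its own mouse, so the spread behind the p-values may in part be technical. No hair cycle stage is given.

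The treatment of each array was not recorded in 1 way. All 6 scanner files had the other treatment in their names than the sample under which they were filed. The deposited value table, read by sample title, matched the treatment in the file name for 6 of 6 arrays. Arrays were therefore grouped here by the treatment in the file name. Grouping them by the sample they were filed under turns every sign below, so each direction rests on this choice. In these groups S100a8, a calcium-binding protein of neutrophils and inflamed epidermis, was higher in imiquimod by 7.11 on the log2 scale, and Krt6b, a keratin of stressed epidermis, by 5.41. The share of probes well above background lay between 61.6% and 67.8%. Slide 1 held imiquimod array 1 and all 3 vehicle arrays, and slide 2 held imiquimod arrays 2 and 3.

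Keratins assemble as pairs of a type I and a type II chain, and the paired chains build the intermediate filaments of the cell. In the hair shaft these filaments are embedded in keratin-associated proteins and cross-linked through cysteines. The genes are switched on as matrix cells of a growing follicle move up into the shaft, with Krt35 early, the Krt31, Krt33a, Krt33b and Krt34 group in the cortex, and Krt32 and Krt82 in the cuticle. A resting follicle makes no new shaft. Lef1, Hoxc13 and Foxn1 are transcription factors known to act on hair keratin genes.

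Promoter sequences are shown for members of the tight type I cluster on chromosome 11, whose signals were low in imiquimod on at least 1 probe each, and for Krt84, whose signal was not. They are the 250 bases before each RefSeq start (GRCm38.p6), 5′ to 3′, and RefSeq's table held 6 of the 10 members. Capitals mark CTTTGA (a core that Lef1 and Tcf factors can bind), TTTATG and TATAAA (a core promoter element) on the printed strand.
Krt31 (chr11:100050552-100050801, minus strand): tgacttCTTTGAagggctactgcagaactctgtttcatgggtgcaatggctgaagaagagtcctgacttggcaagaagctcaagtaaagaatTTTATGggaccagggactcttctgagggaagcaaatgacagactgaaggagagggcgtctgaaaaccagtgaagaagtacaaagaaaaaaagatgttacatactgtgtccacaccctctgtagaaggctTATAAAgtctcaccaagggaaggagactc
Krt32 (chr11:100088270-100088519, minus strand): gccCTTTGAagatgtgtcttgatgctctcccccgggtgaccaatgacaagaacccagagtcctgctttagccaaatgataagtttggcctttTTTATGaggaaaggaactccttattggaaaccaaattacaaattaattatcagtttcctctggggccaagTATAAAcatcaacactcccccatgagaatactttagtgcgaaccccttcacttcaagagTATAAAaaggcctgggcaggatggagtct
Krt33b (chr11:100029869-100030118, minus strand): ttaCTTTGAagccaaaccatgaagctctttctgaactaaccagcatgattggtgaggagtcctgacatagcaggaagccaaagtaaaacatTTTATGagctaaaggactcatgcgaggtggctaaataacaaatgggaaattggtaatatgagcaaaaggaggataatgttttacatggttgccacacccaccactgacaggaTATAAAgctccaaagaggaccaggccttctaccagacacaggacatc
Krt34 (chr11:100041555-100041804, minus strand): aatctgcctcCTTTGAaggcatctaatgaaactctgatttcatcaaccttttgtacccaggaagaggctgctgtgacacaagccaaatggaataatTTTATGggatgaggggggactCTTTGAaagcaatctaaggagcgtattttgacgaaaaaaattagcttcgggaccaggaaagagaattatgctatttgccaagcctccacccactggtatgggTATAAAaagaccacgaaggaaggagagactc
Krt84 (chr15:101532821-101533070, minus strand): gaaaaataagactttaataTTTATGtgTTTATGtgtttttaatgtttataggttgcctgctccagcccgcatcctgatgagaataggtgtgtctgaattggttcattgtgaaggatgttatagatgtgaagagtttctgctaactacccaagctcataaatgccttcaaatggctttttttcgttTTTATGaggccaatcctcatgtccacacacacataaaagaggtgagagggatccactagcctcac

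CTTTGA was present in 4 of the 6 member promoters, Krt31, Krt32, Krt33b and Krt34, and in 13.8% of all 32851 promoters of this length, both strands searched. In these 4 genes a copy began 240 to 247 bases before the start. Krt34 had a second copy that began 133 bases before it. TATAAA was present in 5 of 6 against 12.4% of all promoters. In Krt31, Krt32 and Krt34 a copy began 29 to 31 bases before the start, and in Krt33b 47 bases before it. Krt84 held TATAAA on the opposite strand only, where it overlapped a match to TTTATNG. That motif, searched because Hox factors such as Hoxc13 can bind TTTAT cores, was present in 4 of 6 against 9.81%. TTTATG was looked for after the sequences had been read, and it overlaps TTTATNG where a G follows. It was present in 6 of 6 against 10.8%, and began 154 to 159 bases before the start in Krt31, Krt32, Krt33b and Krt34. A match is a description of the letters in this window, and the duplicated genes of this cluster share sequence.

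Probes are shown for Krt33b, whose 2 probes gave opposite signs, and for Krt86, whose probe is not particular to 1 gene. Positions are those of the array files (mm9), and the letters are printed in lower case throughout.
Krt33b 3′ probe (chr11:99885054-99885113, minus strand): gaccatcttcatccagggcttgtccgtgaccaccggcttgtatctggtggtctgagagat
Krt33b 5′ probe (chr11:99887866-99888804, minus strand): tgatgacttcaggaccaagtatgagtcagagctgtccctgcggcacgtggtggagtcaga
Krt86 probe (chr15:101307291-101307350, plus strand): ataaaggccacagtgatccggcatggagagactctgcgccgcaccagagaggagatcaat
The 5′ probe of Krt33b has 60 bases but spans 939 bases of the genome, so it crosses at least 1 exon junction. The Krt32 probe also has 60 bases, but the position listed for it covers 29 bases, so the place of the rest is not given. The Krt86 probe lists accessions of Krt86, Krt81 and Krt83, so its signal cannot be divided between these 3 genes. All other member probes list the accession of 1 gene in RefSeq. Whether a probe, such as the 5′ probe of Krt33b, also matches other transcripts was not checked. All values below are log2 signals, in which 0 is the 75th percentile of the array. They are compared for 1 probe across arrays and never between probes.

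**Figure D1:**
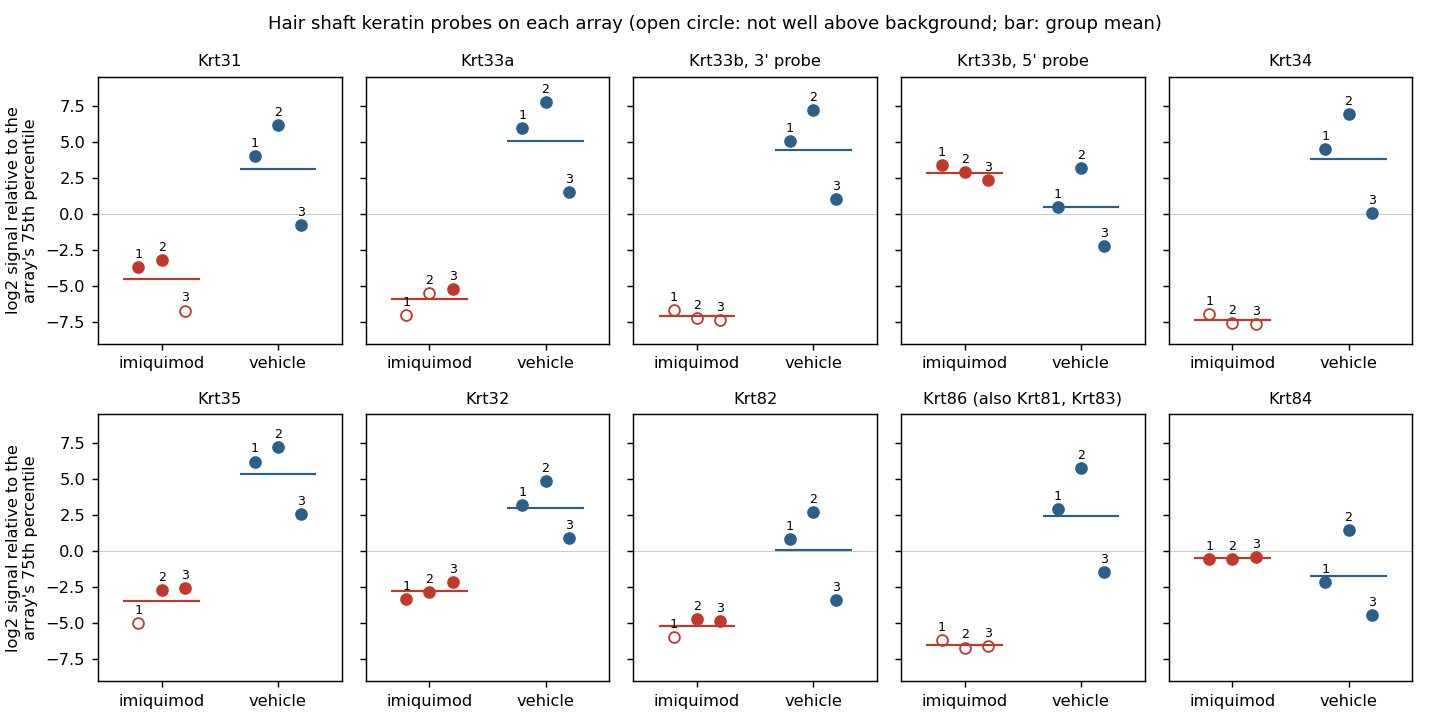
Log2 signal relative to the array's 75th percentile (vertical axis) of the 10 hair shaft keratin probes on the imiquimod arrays (red) and vehicle arrays (blue), numbered by replicate; open circles were not well above background and bars are group means. In 8 probes all imiquimod arrays lay below all vehicle arrays, and in all 10 probes vehicle array 2 was the highest and vehicle array 3 the lowest of the vehicle arrays.

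Of the 9 genes tested, 6 fell in imiquimod skin: Krt31, Krt32, Krt33a, Krt34, Krt35 and Krt86 (limma, Benjamini-Hochberg adjusted p under 0.05 over 17772 genes). None passed in the other direction, also at an unadjusted p of 0.05, and Krt33b, Krt82 and Krt84 did not pass. In whole skin, fewer shaft-forming cells and less keratin RNA per cell cannot be told apart. The count of lower genes was 3 without imiquimod array 1, imiquimod array 2 or vehicle array 1, and 2 genes were higher without vehicle array 2. Among all genes tested, 10.5% were lower and 13.1% higher in imiquimod. The median difference of the 9 was -7.67, against 0.02 over all genes, and -6.07 with normexp background correction. Setting Krt34 and Krt86, dim on every imiquimod array, at their bounds left the median at -7.67. The bound of Krt86 lies only just below that median, so with a slightly higher floor the median would move. The median gene, Krt31, was itself not well above background on imiquimod array 3. Without overlap between the groups, 7 of the 9 genes were lower, against 20.7% of all genes. Each probe passed the dimness filter on the strength of its vehicle arrays or of all arrays: all 10 were well above background on the 3 vehicle arrays, but only 3 on all imiquimod arrays.

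Krt35, a type I keratin of the early shaft, fell by 8.78 on the log2 scale (SE 1.32, adjusted p = 0.00901). Its log2 signals were -4.99, -2.71 and -2.57 on imiquimod arrays 1 to 3, against 6.23, 7.25 and 2.60 on vehicle arrays 1 to 3. The groups did not overlap, and the lowest vehicle array was 5.17 above the highest imiquimod array. Krt35 was the only member that also passed with slide as a block (-10.35, adjusted p = 0.0456). Slide 2 held no vehicle array, so that difference sets imiquimod array 1 alone, on which Krt35 was lowest, against the vehicle arrays.

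The cortex keratins Krt33a, Krt34 and Krt31 fell by 10.98, 11.21 and 7.67 on the log2 scale. Krt33a had log2 signals of -7.01, -5.49 and -5.21 on imiquimod arrays, against 5.97, 7.76 and 1.51 on vehicle arrays (SE of the difference 1.59, adjusted p = 0.00808). It was well above background on 1 imiquimod array. Krt34 had -6.94, -7.56 and -7.61 on imiquimod arrays, against 4.51, 6.91 and 0.09 on vehicle arrays (SE 1.65, adjusted p = 0.00844).

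Krt34 was not well above background on any imiquimod array, so its fold is given as a bound. By this bound its mean was at least 549-fold lower in imiquimod. This bound sets the vehicle mean against a floor: on each imiquimod array, the dimmest signal still well above background among all probes. Against vehicle array 3 alone, the dimmest, it was at least 40.9-fold. With normexp background correction the fitted difference was -7.45, so the size for dim probes depends on the correction. The floor is no strict detection limit. The sebaceous gland gene Scd3 lay above it on imiquimod arrays 2 and 3 (-5.04 and -5.33, floors -5.471 and -5.465). Yet Scd3 was well above background on only 1 imiquimod array. The folds by this bound, here and below, hold only for this floor, and a higher floor would make them smaller.

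Krt31 varied most among the imiquimod arrays. Its log2 signals were -3.67, -3.20 and -6.71 on imiquimod arrays, against 4.0, 6.18 and -0.74 on vehicle arrays (difference SE 1.90, adjusted p = 0.036). Imiquimod array 3 was low and not well above background, and vehicle array 3 lay 2.46 above the highest imiquimod array. Its call was lost without any 1 of imiquimod arrays 1, 2 and 3 or vehicle arrays 1 and 2 (adjusted p = 0.0560 to 0.115).

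Krt33b, also a cortex keratin, gave 2 answers. On its 3′ probe the log2 signals were -6.65, -7.20 and -7.33 on imiquimod arrays, against 5.07, 7.24 and 1.01 on vehicle arrays. That is a difference of -11.50 (SE 1.48, adjusted p = 0.00601 with each probe tested on its own), and at least 837-fold lower in imiquimod by the same bound (at least 77.7-fold against vehicle array 3). On its 5′ probe the log2 signals were 3.38, 2.88 and 2.35 on imiquimod arrays, against 0.51, 3.16 and -2.21 on vehicle arrays.

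The 5′ probe had the higher mean and therefore stood for Krt33b in the gene count. Its difference of 2.39 did not pass (SE 1.29, adjusted p = 0.226), and vehicle array 2 lay within the imiquimod range. Without vehicle array 2 the difference was 3.72 (adjusted p = 0.0329). It did not pass without any other single array (limma, adjusted p = 0.31 to 0.419). The mean of both probes gave -4.56 (adjusted p = 0.0643). With each of the 10 member probes tested on its own, 7 were called lower and 0 higher, against 9.73% and 11.4% of the 27408 probes tested.

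**Figure D2:**
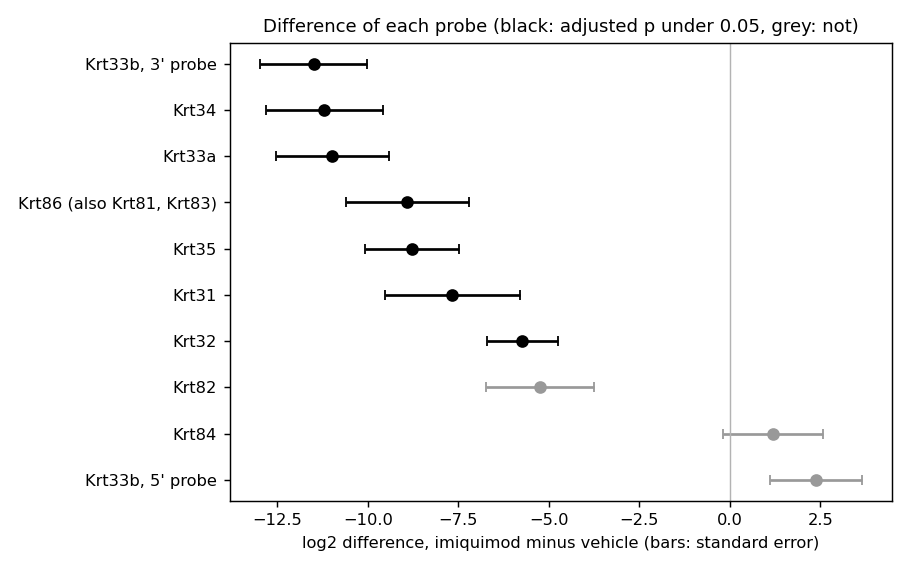
Log2 difference, imiquimod minus vehicle (horizontal axis), of each hair shaft keratin probe with its standard error, 3 arrays per group; black points passed an adjusted p of 0.05 with each probe tested on its own. The Krt33b probes stand at -11.50 and 2.39, at opposite ends.

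The cuticle keratins Krt32 and Krt82 were both lower on every imiquimod array. Krt32 had log2 signals of -3.30, -2.80 and -2.12 on imiquimod arrays, against 3.21, 4.87 and 0.90 on vehicle arrays, and fell by 5.73 (SE 0.99, adjusted p = 0.0131). It was the only member that fell while well above background on all 6 arrays, so its difference is measured on both sides. Its call was lost without imiquimod array 1, imiquimod array 2 or vehicle array 1 (adjusted p = 0.0511 to 0.0554).

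Krt82, a type II keratin, had -5.92, -4.73 and -4.85 on imiquimod arrays, against 0.85, 2.74 and -3.38 on vehicle arrays. Its difference of -5.24 did not pass (SE 1.52, adjusted p = 0.0546), although the groups did not overlap. Vehicle array 3 was 1.35 above the highest imiquimod array. Without vehicle array 3 the difference was -6.96 (adjusted p = 0.00457). Krt82 did not pass without any other single array (limma, adjusted p = 0.0772 to 0.158).

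Among the type II cortex keratins, the Krt86 probe, shared with Krt81 and Krt83, had log2 signals of -6.15, -6.68 and -6.61 on imiquimod arrays. The vehicle arrays had 2.96, 5.76 and -1.43. The signal fell by 8.91 (SE 1.72, adjusted p = 0.0181), and was well above background on no imiquimod array. By the bound it was at least 207-fold lower in imiquimod, and at least 14.3-fold lower against vehicle array 3 alone. The call was lost without any 1 of imiquimod arrays 1, 2 and 3 or vehicle array 1 (adjusted p = 0.0628 to 0.0701).

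Krt84 stood apart. In humans this type II keratin is known from the filiform papillae of the tongue and not from the hair follicle. Its log2 signals were -0.53, -0.53 and -0.41 on imiquimod arrays, against -2.17, 1.47 and -4.40 on vehicle arrays. The 3 imiquimod arrays lay within 0.13 of each other and inside the range of the vehicle arrays. The difference was 1.21 (SE 1.40, adjusted p = 0.565), -0.15 without vehicle array 3 and 2.79 without vehicle array 2 (adjusted p = 0.0353). All 6 arrays were well above background.

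Slide 1 alone, with 1 imiquimod array, gave the same directions. There the difference was -6.81 for Krt31, -6.29 for Krt32, -12.09 for Krt33a and 2.90 for Krt33b. It was -10.77 for Krt34, -10.35 for Krt35, -5.99 for Krt82, 1.16 for Krt84 and -8.58 for Krt86. None passed within slide 1, although 5 were lower at an unadjusted p of 0.05. There the lone imiquimod array is assumed to vary like the vehicle arrays, and limma called 1 gene of all lower and 7 higher. With slide as a block, Krt35 passed and the other 5 did not (adjusted p = 0.0559 to 0.223). The differences of that fit equal those within slide 1, since slide 2 held no vehicle array. Imiquimod arrays 2 and 3 entered only its estimate of spread.

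The vehicle arrays differed widely from each other. In 10 of 10 member probes, the Krt33b 5′ probe and Krt84 included, vehicle array 2 was the highest of the vehicle arrays and vehicle array 3 the lowest; this order held for 24.5% of all genes tested. The gap between vehicle arrays 2 and 3 was 3.97 to 7.19 on the log2 scale, with a median of 6.18, and was largest for Krt86 and smallest for Krt32. Over all genes the median of this gap was -0.05, and 78 of 17772 genes had a gap of 5 or more. The range among the imiquimod arrays was smaller, with a median of 1.11 over the member probes, against 0.28 over all genes. It went from 0.13 for Krt84 to 3.51 for Krt31, and for most member probes it includes signals not well above background.

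The members' signals moved together over the arrays. Among the 8 probes that were lower in imiquimod, Pearson's r over the 6 arrays was 0.922 to 0.999, a description that includes the group difference itself. The Krt33b 5′ probe and Krt84 correlated with each other at 0.928 and with the other 8 at -0.364 to 0.229. Over the 3 vehicle arrays alone all 10 probes correlated at 0.899 to 1.00, and these points share their hybridisation and RNA.

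The genes most like the mean of the tested members over the 6 arrays (r of at least 0.998 after rounding) were the keratin-associated protein genes Krtap7-1, Krtap9-1 and Krtap5-4, with Gm11568, Sp6, Vangl2, Lef1 and Gprc5d. Krtap7-1 had log2 signals of -7.18, -6.76 and -7.30 on imiquimod arrays, against 0.63, 3.41 and -3.85 on vehicle arrays. Lef1, the transcription factor of Wnt signalling, had -2.08, -1.60 and -1.66 on imiquimod arrays, against 1.75, 2.71 and -0.24 on vehicle arrays. Gprc5d, a receptor found in hard keratin-forming cells, was well above background on no imiquimod array, like Krtap7-1. By the bound Gprc5d was at least 128-fold and Krtap7-1 at least 40.2-fold lower in imiquimod. These genes were chosen for a profile that holds the group difference, so their lower level in imiquimod follows from the choice and is given with no test.

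The members lie within the keratin gene clusters of chromosomes 11 and 15. On chromosome 11, Krt33a, Krt33b, Krt34, Krt31, Krt32 and Krt35 follow each other in that order, and 5 of these 6 genes fell. The next tested gene beyond Krt35, Krt36, a hair and tongue keratin, also fell (-4.90, adjusted p = 0.0373), while Krt13, after it, was higher in imiquimod (1.59, adjusted p = 0.0344). On chromosome 15, Krt86 and its neighbour Krt87, another hair keratin, both fell. Krt87 was well above background on no imiquimod array and was at least 180-fold lower by the bound (adjusted p = 0.0154). Krt84 lies between Krt86 and Krt82 among the tested genes. Further along, the epidermal Krt6b and Krt6a were higher in imiquimod by 5.41 and 4.67. Over the 28 tested keratin genes that were no member, 16 were lower and 7 higher, with a median of -1.43.

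**Figure D3:**
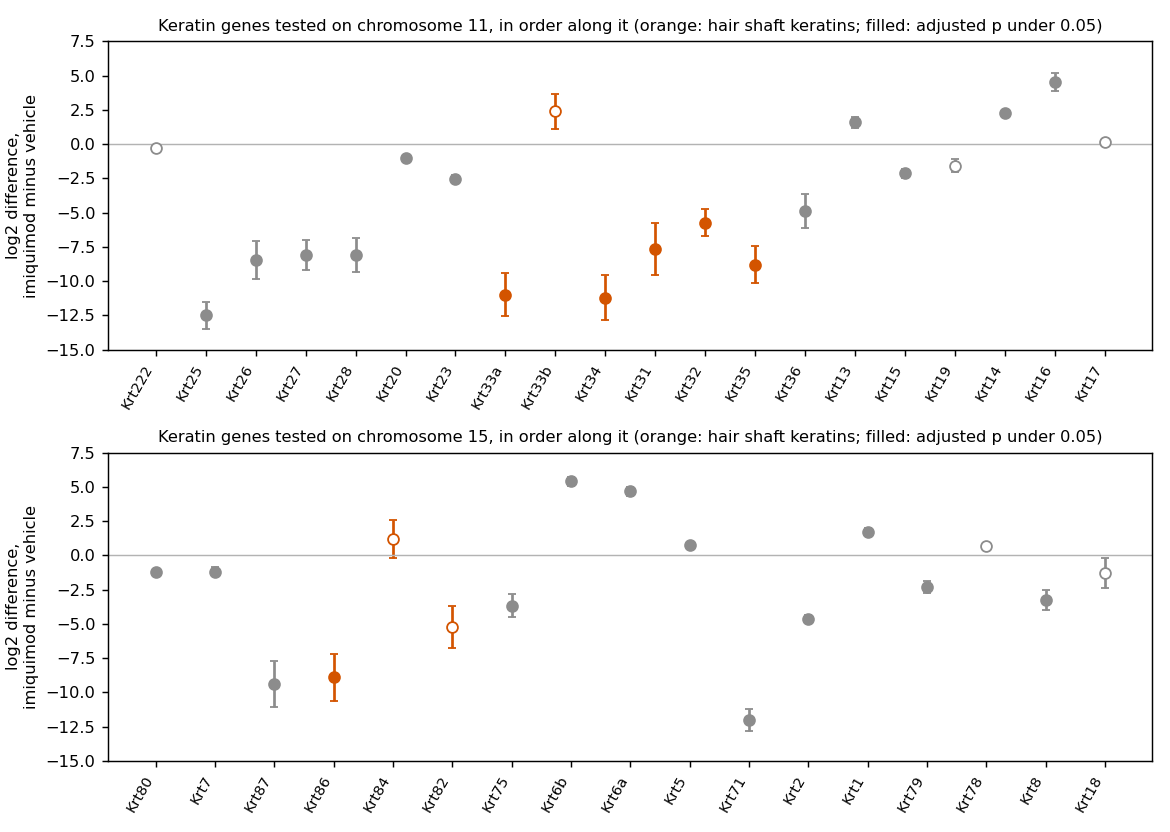
Log2 difference, imiquimod minus vehicle (vertical axis), with its standard error, of the tested keratin genes in their order along chromosomes 11 and 15; orange marks hair shaft keratins, and filled points passed an adjusted p of 0.05. Differences of genes with only a bound (Krt25, Krt34, Krt86, Krt87 and others) are drawn as fitted. Hair shaft keratins from Krt33a to Krt35 lie between -5.73 and -11.21 except Krt33b at 2.39, and Krt84 stands at 1.21 beside Krt86 at -8.91.

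Other parts of the hair shaft and follicle gave counts of their own. All 4 tested hair keratins outside the members fell: Krt87 and Krt36 of the shaft, Krt75 of the companion layer and Krt79 of the upper follicle. The differences of Krt79, Krt75 and Krt36 were -2.32, -3.66 and -4.90, and Krt87 has only its bound. Krt36 was well above background on only 1 imiquimod array, which limits the size of its difference. Of the tested keratin-associated proteins, 27 of 36 fell and 0 rose. Their median was -8.68, or -7.39 with the 24 genes not well above background in imiquimod set at their bounds, and 36 of 36 kept the order of the vehicle arrays seen in the members. Those 24 genes passed the dimness filter through their vehicle arrays alone, so the filter left them no way to be called higher. The same holds for every gene named here that was well above background on no imiquimod array. Among cortex and cuticle proteins 7 of 14 fell and 2 rose (median -1.86): S100a3, a calcium-binding protein of the cuticle, fell by 8.11 (adjusted p = 0.0113) and Crym, a cortex crystallin, by 7.14 (adjusted p = 0.0152). The 2 that rose were Tgm3, by 2.30, and Tgm1, by 0.76 (limma, adjusted p = 0.0162 and 0.0497).

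All 6 tested inner root sheath genes fell, with a median of -8.27 (-8.07 with the 2 dim genes at their bounds). Krt71 and Krt25 build the sheath that moulds the shaft. Krt71 fell by 12.01 (adjusted p = 0.00161), with 2 of 3 imiquimod arrays well above background. Krt25, well above background on none, was at least 2363-fold lower by the bound (adjusted p = 0.00203). Of 21 tested regulators of hair keratin genes 7 fell and 1 rose (median -1.15); Bmp4, a growth factor of the dermal papilla and matrix, fell by 2.51 (adjusted p = 0.00407) and Gata3, a transcription factor of the inner root sheath, by 1.5 (adjusted p = 0.00432). Hoxc13 and Foxn1, named after their values were seen, had differences of -2.53 (adjusted p = 0.0529) and -0.66 (adjusted p = 0.579). Growth-phase genes gave 6 of 18 lower and 1 higher (median -0.65), among them Wnt3 at -2.01 and Wnt4 at 1.54 (adjusted p = 0.00312 and 0.0038). Bulge and outer root sheath genes gave 5 of 10 lower and 0 higher (median -0.78), with Krt15 at -2.12 and Tcf7l1 at -0.74 (adjusted p = 0.00937 and 0.014).

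**Figure D4:**
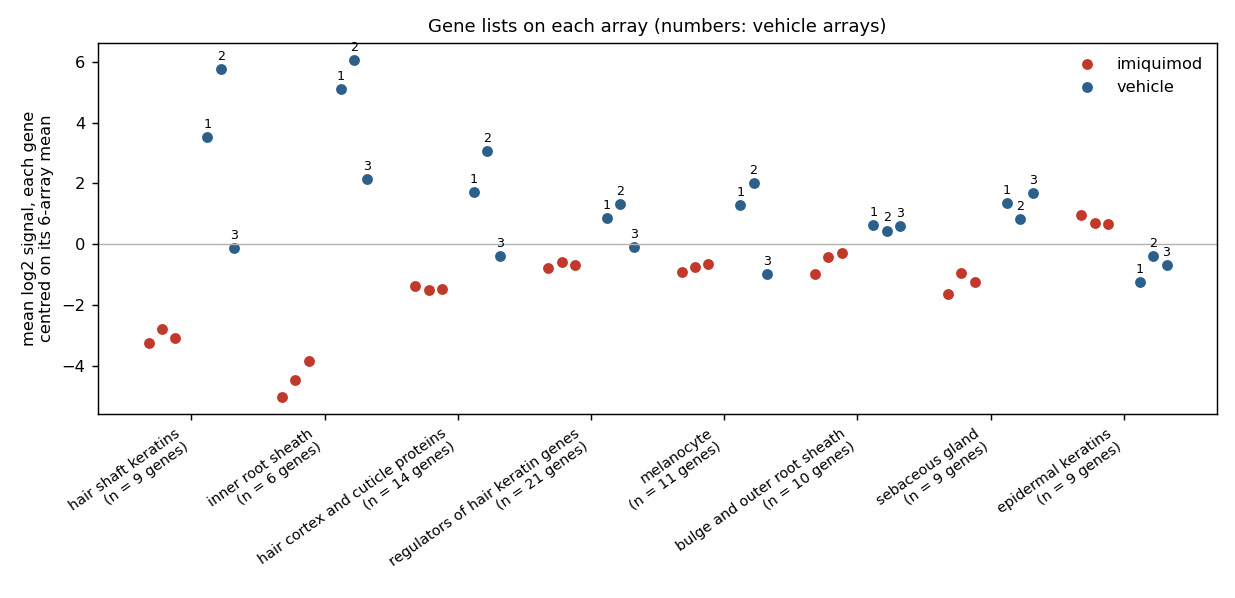
Mean log2 signal of each gene list on each array, every gene centred on its mean over the 6 arrays (vertical axis), for imiquimod (red, left) and vehicle (blue, right, numbered). For the hair shaft keratins the imiquimod arrays lie at -3.26 to -2.78, and the vehicle arrays at 3.54, 5.76 and -0.14.

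These list counts changed when single arrays were left out, as did the count over all genes. Leaving out 1 imiquimod array or vehicle array 1 took all genes called lower to between 745 and 854, against 1866 with all arrays. Without any 1 of the imiquimod arrays, or without vehicle array 1, the genes called lower were 0 or 1 of the other hair keratins, 0 or 1 of the cortex and cuticle proteins and 2 of the regulators. They were 2 or 3 of the growth-phase genes and 1 or 2 of the bulge genes, while 5 of the 6 inner root sheath genes still passed. Without vehicle array 3, in which the shaft genes were dimmest among the vehicle arrays, 13 regulators, 9 cortex and cuticle proteins and 9 growth-phase genes were lower. With slide as a block, the lower genes were 3 of the inner root sheath, 1 of the other hair keratins and 0 of the cortex and cuticle proteins. In that fit imiquimod array 1 alone sets the differences.

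Markers of several other skin compartments also differed between the groups, and their part in the keratin result was not tested. Melanocyte genes, whose pigment is passed to the growing shaft, gave 2 of 11 lower and 0 higher (Mitf at -1.42 and Sox10 at -0.81), with 9 not passing; without vehicle array 3, 9 were lower. Their mean centred signal was -0.92 to -0.65 on imiquimod arrays and 1.27, 2.00 and -0.97 on vehicle arrays 1 to 3, so vehicle array 3 lay below every imiquimod array. For the mean of the hair shaft keratins vehicle array 3 lay above every imiquimod array. On the Krt33b 5′ probe and for Krt84 it lay below every imiquimod array. Sebaceous gland genes gave 6 of 9 lower and 1 higher (median -1.89), with Elovl3 at -5.41 and Scd3 at -7.06. Scd3 was well above background on only 1 imiquimod array. The centred mean of the sebaceous list was -1.64 to -0.96 on imiquimod arrays and 0.82 to 1.69 on vehicle arrays, highest on vehicle array 3.

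Epidermal keratins gave 6 of 9 higher and 2 lower (median 1.71), with Krt6b at 5.41. Krt2, a keratin of upper epidermal layers, has only a bound, at least 6.45-fold lower (adjusted p = 0.00142). Neutrophil and macrophage genes gave 6 of 8 higher and 0 lower (median 2.37), with S100a8 at 7.11 and Cd14 at 2.39, and their centred mean was 1.37 to 1.81 on imiquimod arrays and -1.95 to -1.11 on vehicle arrays. Endothelial genes gave 3 of 5 higher, and T cell genes 0 of 4 in either direction (limma; 2 were lower at an unadjusted p of 0.05). Dermal papilla and fibroblast genes gave 2 of 10 lower (Alpl and Corin) and 4 higher (Col1a1, Col3a1, Lum and Col1a2). Tongue and hard palate keratins, which include Krt84 and Krt36, gave 1 of 3 in each direction. Skeletal muscle genes gave 1 of 8 lower and 0 higher and adipocyte genes 1 of 6 lower and 0 higher, near the 10.5% of all genes called lower.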

How the data were processed

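Whole-skin RNA of 6 samples, 3 per group, was measured on single-colour Agilent arrays. The deposited scanner files hold linear spot intensity. The processed signal used here was background-subtracted, per the file headers, which name Agilent Feature Extraction 10.7.3.1 (the submitters' processing notes name 9.1). The deposited table of values is log2; its slopes against the matching arrays were 0.974 to 1.01 and its column medians 7.05, its direction followed the processed signal, and how it was normalized between arrays is not given in the sources used here.

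Control spots and 322 spots flagged as outliers were left out and the spots of a probe averaged (41115 of 41174 probes). Values are log2 processed signal minus the 75th percentile of the array. Probes well above background on at least 3 of 6 arrays were tested (27408), and the probe of highest mean stood for its gene (17772 genes). The comparison used lmFit and eBayes of limma 3.58.1 (R 4.3.3), two-sided and without covariates, with Benjamini-Hochberg adjustment at 0.05. The fit was run on simulated data with the same spread in both groups and no background limit. The members differ in both respects, so that run does not cover them. Names came from RefSeq accessions (27668 probes), otherwise from symbols.

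Members and lists were chosen with earlier results of these data known. The rule named all members, the 2 genes of smallest p of each list and the 8 genes of most similar pattern. It was not followed for the endothelial, T cell, skeletal muscle and adipocyte lists, of which no gene is named. The rule also covered counted genes of short counts (5 or fewer), but not all of these are named. Beyond the rule are named neighbours in a cluster, Hoxc13 and Foxn1. Same-numbered arrays did not deviate together across genes (correlations -0.0872, 0.0674 and 0.0854). The small number of arrays limits the precision, and slide is partly confounded with group. Motifs and promoters are from RefSeq (GRCm38.p6). The alternatives were other normalization, background correction, filters, probe rule, variance model, slide, replicate block, value table, file assignment and leaving out each array.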

Additional observations from a re-analysis of the deposited data

How the results depend on the processing

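The group of an array decides every direction: with files assigned to the sample they were filed under, differences were 7.67 for Krt31, 5.73 for Krt32, 10.98 for Krt33a, -2.39 for Krt33b, 11.21 for Krt34, 8.78 for Krt35, 5.24 for Krt82, -1.21 for Krt84 and 8.91 for Krt86, the members' median was 7.67, and 0 members were lower and 6 higher. List medians then were 4.28 (other hair keratins), 8.27 (inner root sheath), 1.86 (cortex and cuticle proteins), 1.15 (regulators), 0.65 (growth phase), 0.78 (bulge), 1.42 (melanocyte) and -1.71 (epidermal keratins). Requiring a probe well above background on all 6 arrays leaves 3 members, with a median of 1.21 and 1 lower. Members called lower were 1 with slide as a block and 0 within slide 1, and 3 to 7 when 1 array was left out; members called higher were 0 to 2 then. Of all genes, 518 were lower and 540 higher with slide as a block, 1 and 7 within slide 1, and 745 to 2216 lower and 946 to 2512 higher with 1 array left out. The replicate block gave 1042 lower and 1163 higher and changed no call of a member; it is no pairing of samples. Krt33b was -4.56 with the mean of its probes, and Krt84 -0.15 without vehicle array 3 and 2.79 without vehicle array 2. Krt31 was not called without a filter on dim probes (adjusted p = 0.0577), and Krt82 was called with a variance trend and robust estimation (adjusted p = 0.0465). With quantile normalization, normexp or the value table, 6 members were called lower and 0 higher. Signal near background on at least 1 imiquimod array limits the size of the differences of Krt31, Krt33a, Krt34, Krt35, Krt82, Krt86 and the Krt33b 3′ probe; normexp gave -6.14 for Krt31 and -3.54 for Krt82.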
